A study of Mus musculus with 8 samples.

Results

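The Eph receptors and ephrins measured here are 10 genes of one cell-contact signalling family: the EphA receptors Epha3, Epha4, Epha5 and Epha7, the EphB receptor Ephb2, the ephrin-A ligands Efna2 and Efna5, and the ephrin-B ligands Efnb1, Efnb2 and Efnb3. They were taken as the non-control probes whose gene name on the array equals one of these symbols. That gave 14 probes for the 10 genes, of 55664 probes usable on every array, and all 14 passed the filter on dim probes that left 42754 probes and 28829 genes. The study compared wild-type embryos with mutants under conditional loss of Geminin, a regulator of DNA replication licensing encoded by Gmnn. All embryos were of strain C57BL/6 at stage E10.5, and the mutants carry the genotype fl/fl; cre/o. Which cells express the cre, and which exons of Gmnn it removes, is not in the labels, and the wild-type embryos are labelled with no floxed allele and no cre. Spinal neural tube, which forms the spinal cord, and the paraxial tissue beside it, which forms somites, vertebrae and muscle, were each cut out by laser capture from 2 wild-type and 2 mutant embryos. The 8 samples thus form 4 groups of 2, and each embryo gave both tissues.

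Eph receptors are receptor tyrosine kinases whose ligands, the ephrins, are bound to the membrane of a neighbouring cell, ephrin-A proteins by a lipid anchor and ephrin-B proteins by a transmembrane segment. Contact starts a forward signal in the cell with the receptor and a reverse signal in the cell with the ephrin, and often ends in repulsion. In the embryonic trunk the family is known for guiding motor and commissural axons of the spinal cord, for keeping migrating neural crest cells out of the posterior side of each somite, and for setting somite boundaries.

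Every value rests on a 60-base probe, and the probes differ in what they can report. The first 4 lines below give the first 30 bases of the Ephb2 probe and of the 3 Epha7 probes. By the brightest probe of a gene, Ephb2 was the one member that passed the test between tissues. The array design assigns the Epha7 probes to different transcripts. The last 3 lines give the last 30 bases of both Epha5 probes and of the Ephb3 probe, since one Epha5 probe and the Ephb3 probe hold a run of alternating G and T, shown in capitals.
Ephb2, probe A_55_P2215880: accagatccagtctgtagaggtttgacatt
Epha7, probe A_52_P504787: tggccatcaaaagaagatcatgagcagcat
Epha7, probe A_55_P1969058: tgtcatcataattgctgtagtggctgtagc
Epha7, probe A_52_P306236: cagttaggctgcagtgtaaatatataaaga
Epha5, probe A_55_P2062911: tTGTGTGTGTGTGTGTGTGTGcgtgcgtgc
Epha5, probe A_55_P2100425: tttgtgtacatgtttttgtagtgtaagata
Ephb3, probe A_55_P2054332: GTGTGTGTGTGTGTGTGTGTGTGTGTGTGT
On mouse build mm9, as the array design gives it, the Ephb2 probe lies at chr4:136211203-136211262 on the minus strand. The Epha7 probes lie on the plus strand of the same chromosome, at chr4:28891069-28891128 (transcript variant 1), chr4:28869764-28869823 and chr4:28873570-28873629 (both assigned to transcript variant 2). The Epha5 probes lie on the minus strand, the one with the run at chr5:84487348-84487407 and the other at chr5:84483837-84483896. The Ephb3 probe lies at chr16:21223165-21223224 on the plus strand. Exon and untranslated region were not assigned, because no mm9 annotation was used here.

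Signals are given as scaled log2 intensities, in which each array was aligned on its 75th percentile, so that a difference of 1 is a doubling. The share of probes well above background was 71.5% to 77.9% per array, and 0 spots were saturated. Gmnn itself read 12.35 and 12.24 in the wild-type neural tube, 12.10 and 11.80 in the mutant neural tube, 12.20 and 11.88 in the wild-type paraxial tissue and 11.42 and 11.39 in the mutant paraxial tissue. Both mutant arrays lay below both wild-type arrays in each tissue, and the group means differed by 0.35 ± 0.25 (SE; adjusted p = 0.922) in the neural tube and 0.63 ± 0.25 (adjusted p = 0.996) in the paraxial tissue. Whether its probe lies in the deleted part is not given, so it may not check the labels. The tissue labels could be checked: on the average of genotypes 12 of 12 neural progenitor genes passed the test as higher in the neural tube, and 14 of 16 sclerotome and mesenchyme genes passed it as higher in the paraxial tissue. These are arrays of tissue pieces, in which fewer cells of a type and less RNA per cell cannot be told apart.

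The first question was where each receptor and ligand was higher. Averaged over genotypes, Ephb2 was the one member that passed the test, 0.45 ± 0.11 (SE, n = 4 embryos) higher in the neural tube, or 1.37-fold (limma, adjusted p = 0.0365). The other 9 members did not pass by their brightest probe, though another probe of Epha7 did when fitted on its own, as described below. Their largest differences were those of Epha4 and Efnb3 toward the neural tube and of Epha7 and Epha3 toward the paraxial tissue. Among all 28829 genes 12% passed in either direction in the same comparison and 5.97% as higher in the neural tube, so that 1 of 10 members is near the background share. The median difference was -0.08 over the members and -0.02 over all genes. In wild-type embryos alone 0 of 10 members passed, against 2.49% of all genes, and in mutants alone 0 of 10, against 5.87%. At an unadjusted p under 0.05 limma counted 4 members in wild type, 2 in mutants and 5 on the average of genotypes. The shares of all genes at that cutoff were 17.9%, 19.7% and 26.4%.

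Among the EphA receptors, Epha4, which can bind ephrins of both classes and steers limb motor axons, read 8.58 and 8.16 in the wild-type neural tube and 7.60 and 6.99 in the wild-type paraxial tissue. In mutants it read 7.10 and 7.82 in the neural tube and 5.50 and 7.60 in the paraxial tissue. The neural tube was the higher tissue in 4 of 4 embryos, by 0.22 to 1.60, and the groups did not overlap in wild type but did in mutants. The average difference was 1.00 ± 0.29 (adjusted p = 0.0733). Its signal was well above background on 7 of the 8 arrays, the exception being mutant paraxial array 1 (5.50). The 1.60 of mutant embryo 1 and the average thus rest in part on an array that gives only a bound.

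Epha7, whose transcripts include one that ends before the kinase domain, ran the other way. By its brightest probe it read 12.90 and 13.93 in the wild-type neural tube against 14.26 and 14.29 in the wild-type paraxial tissue. In mutants it read 12.93 and 13.69 in the neural tube against 14.12 and 14.09 in the paraxial tissue. The 4 paraxial arrays lay close together and above every neural tube array, while the neural tube arrays spread from 12.90 to 13.93, with embryo 1 of each genotype below embryo 2. The average difference was -0.83 ± 0.21 (adjusted p = 0.0509).

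Epha3, an EphA receptor known on axial motor neurons, was lower in the neural tube than in the paraxial tissue of all 4 embryos, by 0.33 to 1.86. Its average tissue difference of -0.92 ± 0.53 (adjusted p = 0.332) was smaller than the spread between embryos, which is described with the genotypes. Epha5 by its brightest probe ran from 16.94 to 17.50 over the 8 arrays, with an average tissue difference of -0.21 ± 0.11 (adjusted p = 0.272). Its second probe, near background, is described below.

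**Figure D1:**
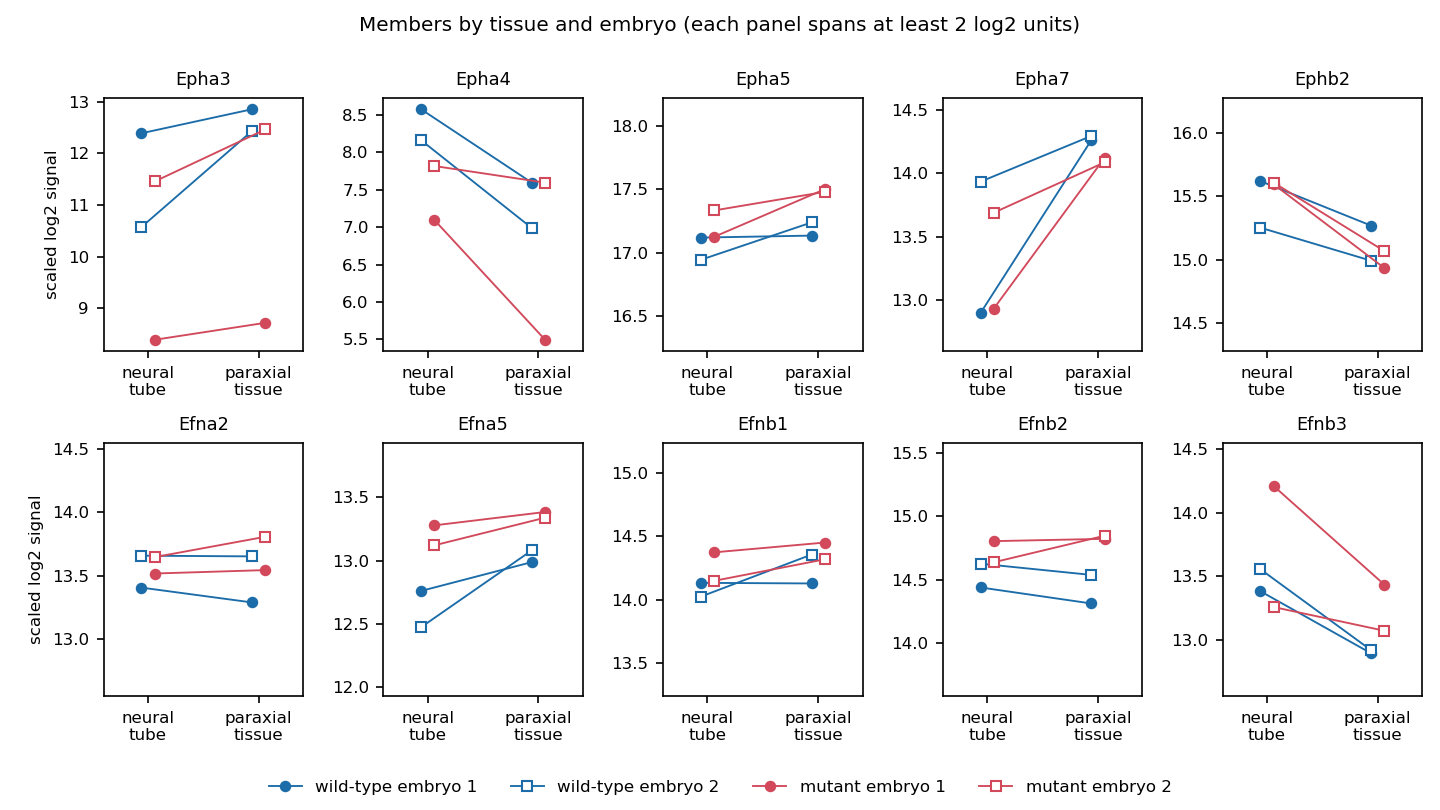
Scaled log2 signal of the brightest probe of each of the 10 members (vertical axis, 1 panel a gene, each with its own range) in neural tube and paraxial tissue; lines join both tissues of an embryo, blue for wild type and red for mutant, filled circles for embryo 1 and open squares for embryo 2. The 4 lines of Ephb2 fall from neural tube to paraxial tissue, those of Epha7 rise, and mutant embryo 1 reads 8.39 and 8.72 for Epha3 while every other array reads at least 10.57.

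Ephb2, an EphB receptor that takes part in commissural axon guidance, read 15.62 and 15.25 in the wild-type neural tube and 15.27 and 14.99 in the wild-type paraxial tissue. In mutants it read 15.60 and 15.61 in the neural tube and 14.94 and 15.07 in the paraxial tissue. Within each embryo the neural tube was higher, by 0.35 and 0.26 in wild type and by 0.66 and 0.54 in mutants, and the tissues overlapped across wild-type embryos but not across mutants. The difference was 0.31 ± 0.15 (adjusted p = 0.344) in wild type and 0.60 ± 0.15 (adjusted p = 0.068) in mutants, and the test of the difference between them did not pass (0.29 ± 0.21, adjusted p = 0.965). The call on the average was lost when any of the 8 arrays or any of the 4 embryos was left out, with adjusted p from 0.0648 to 0.228 and differences from 0.40 to 0.50. It was also lost with the embryo left out of the model (no replicate block, adjusted p = 0.271), with the embryo as a fixed replicate block (0.0872), with the slide row as a fixed term (0.0888) and with no filter on dim probes (0.0849).

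Of the ephrin-A ligands, Efna5, which repels axons bearing EphA receptors, read 12.76 and 12.47 in the wild-type neural tube and 12.99 and 13.08 in the wild-type paraxial tissue. The mutant values were 13.28 and 13.12 in the neural tube and 13.38 and 13.34 in the paraxial tissue. The neural tube was the lower tissue in each embryo and the tissues did not overlap in either genotype, but the average difference of -0.29 ± 0.11 did not pass (adjusted p = 0.148). Efna2, the other ephrin-A of the set, stayed between 13.29 and 13.81 on all 8 arrays and differed between tissues by -0.02 ± 0.11 (adjusted p = 0.945).

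Of the ephrin-B ligands, Efnb3, known as the midline barrier of the spinal cord to axons of the corticospinal tract, read 13.38 and 13.56 in the wild-type neural tube and 12.89 and 12.92 in the wild-type paraxial tissue. Mutant arrays read 14.21 and 13.26 in the neural tube and 13.43 and 13.07 in the paraxial tissue. The neural tube was higher in each embryo, by 0.19 to 0.78, with an average of 0.52 ± 0.15 (adjusted p = 0.0743). Efnb1, an X-linked ligand with a role in neural crest migration, ran from 14.03 to 14.45, and Efnb2, a marker of arteries that is also made at the posterior side of somites, from 14.31 to 14.85. Their average tissue differences were -0.14 ± 0.11 (adjusted p = 0.455) and -0.00 ± 0.10 (adjusted p = 0.99), with 95% intervals of -0.40 to 0.11 and of -0.24 to 0.24.

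By direction alone, 3 of 10 members (Epha4, Ephb2 and Efnb3) were higher in the neural tube of all 4 embryos, where 18% of all genes were. A further 4 (Epha3, Epha5, Epha7 and Efna5) were lower in all 4, where 17.2% of all genes were. In wild type the tissues did not overlap for 6 of 10 members (35.2% of all genes), with 2 higher in the neural tube (18.3% of all genes) and 4 lower (16.9%). In mutants they did not overlap for 5 of 10 (36.2% of all genes), with 1 higher (16.5%) and 4 lower (19.7%). These counts use the brightest probe of a gene. The other Epha5 probe, near background, read higher in the neural tube of all 4 embryos. It read 7.95 against 7.07 and 8.18 against 5.50 in wild type, without overlap. In mutants it read 5.86 against 5.49, both not well above background, and 7.77 against 6.46, with overlap. The second Efnb2 probe overlapped in mutants, and 1 of the Epha7 probes in both genotypes. The cell types in the pieces differed too. The summed log2 signal of 12 neural progenitor genes ran from 18.48 to 18.81 in the wild-type and 18.62 to 18.78 in the mutant neural tube, and from 17.63 to 18.16 and 17.65 to 17.87 in the paraxial tissue. That of 16 neuronal genes, 9 of which passed as higher in the neural tube and 0 as lower, ran from 19.05 to 19.42 and from 19.05 to 19.30 in the neural tube of wild type and mutants, and from 18.75 to 19.07 and 18.96 to 19.02 in the paraxial tissue. That of 16 sclerotome and mesenchyme genes ran from 15.15 to 16.10 and 15.65 to 15.76 in the neural tube and from 17.28 to 17.57 and 17.51 to 17.62 in the paraxial tissue. In each list every measured gene was well above background on at least 1 array, which the filter on dim probes requires. The part of cell type makeup in the members' differences was not tested.

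**Figure D2:**
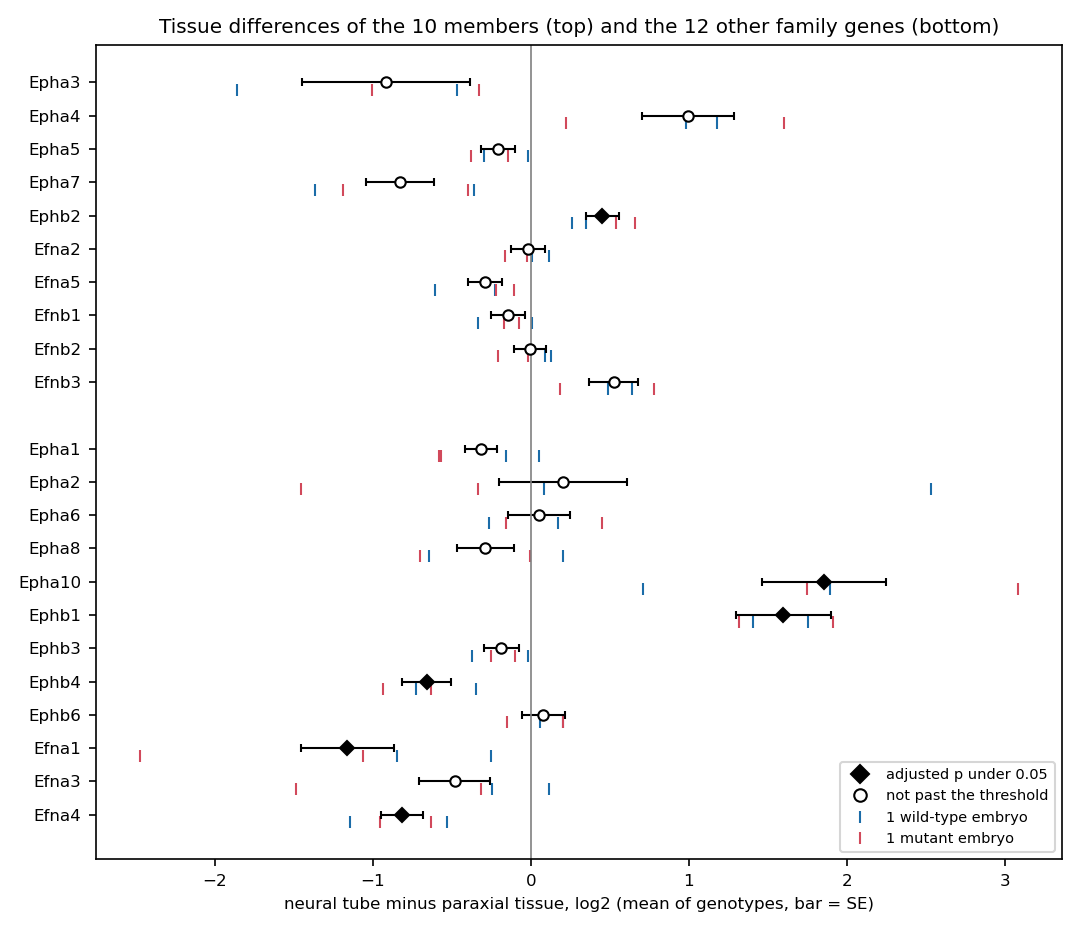
Neural tube minus paraxial tissue on the log2 scale (horizontal axis), averaged over genotypes, for the 10 members above and the 12 other Eph receptors and ephrins below; points with bars are the fitted difference ± SE, filled diamonds passed the threshold of adjusted p under 0.05, and ticks are the single embryos (blue wild type, red mutant). Ephb2 is the one filled diamond among the members, and 5 of the 12 others are filled.

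The 12 other family genes on the array were read the same way, as a list given by family membership. Of them 5 passed in the comparison averaged over genotypes, 2 higher and 3 lower in the neural tube, beside the 12% of all genes. Ephb1, an EphB receptor that turns retinal axons at the optic chiasm, was higher by 1.60 ± 0.30 (adjusted p = 0.0169), and Epha10, a receptor without kinase activity, by 1.86 ± 0.39 (adjusted p = 0.0261). Lower in the neural tube were Efna4 by 0.82 ± 0.13 (adjusted p = 0.0107), Ephb4 by 0.66 ± 0.16 (adjusted p = 0.0388) and Efna1 by 1.16 ± 0.29 (adjusted p = 0.0469). Efna4 and Efna1 are ephrin-A ligands, and Ephb4 is the receptor of veins, which pairs with Efnb2 of arteries. Beside Ephb4 and Efna1, 7 of 12 endothelial genes passed as lower in the neural tube and 0 as higher, with a summed log2 signal of 15.45 to 16.03 and 15.26 to 15.77 in the neural tube of wild type and mutants, and of 15.96 to 16.29 and 16.63 to 16.74 in the paraxial tissue. The part of endothelium in these differences was not tested. All 5 had the same direction in all 4 embryos, but the test that picked them used those embryos, so this is no separate support. Ephb1 was not well above background on mutant paraxial array 1 (6.90), nor Efna1 on mutant neural tube array 1 (7.19), so their differences rest in part on arrays that give only a bound. None of the 5 calls held throughout when each array and each embryo was left out in turn: Efna4 kept its call in 6 of these 12 fits, Ephb1 in 5, Epha10 in 3, and Ephb4 and Efna1 in 1 each. All 5 calls were also lost with no replicate block (highest adjusted p 0.327, for Ephb4).

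The second question was whether the members differed between mutants and wild type. In neither tissue did any of the 10 members pass, and 0% of all genes did, with 0 of 28829 called by limma in the neural tube, in the paraxial tissue and in the test of their difference. At an unadjusted p under 0.05 limma counted 1048 genes in the neural tube and 968 in the paraxial tissue, and 0 members in either. The members' median difference was 0.17 in both tissues, against -0.01 and 0.03 over all genes. Since the 95% intervals had a median width of 1.16 log2 units, these data do not show that the members were alike in both genotypes.

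Efna5 came nearest to the threshold. Both mutant arrays were above both wild-type arrays in the neural tube, 13.28 and 13.12 against 12.76 and 12.47, and in the paraxial tissue, 13.38 and 13.34 against 12.99 and 13.08. The differences were 0.58 ± 0.25 (unadjusted p = 0.050, adjusted p = 0.922) and 0.33 ± 0.25 (adjusted p = 0.996), and between embryos of one slide row they were 0.52 and 0.65 in the neural tube and 0.40 and 0.26 in the paraxial tissue. Efnb2 was also above wild type without overlap in both tissues, by 0.19 ± 0.23 (adjusted p = 0.93) in the neural tube and 0.41 ± 0.23 (adjusted p = 0.996) in the paraxial tissue, by its brightest probe. By its second probe the genotypes overlapped in the neural tube, where mutants read 12.73 and 12.99 and wild type 12.74 and 13.03, and did not overlap in the paraxial tissue, where mutants read 13.08 and 12.88 and wild type 12.56 and 12.62. In the neural tube the genotypes did not overlap for 5 of 10 members (31.9% of all genes), 4 of them higher in mutants (16.5% of all genes; Epha5, Efna5, Efnb1 and Efnb2) and 1 lower (15.4%; Epha4). In the paraxial tissue they did not overlap for 5 of 10 (37.3%), 4 of them higher (22.6%; Epha5, Efna5, Efnb2 and Efnb3) and 1 lower (14.7%; Epha7). These counts use the brightest probe of a gene. Of the other probes, both of Epha7 overlapped in the paraxial tissue, as that of Efnb2 did in the neural tube. The second Epha5 probe, near background, ran the opposite way in the neural tube. Its wild-type arrays there read 7.95 and 8.18. The mutant arrays lay lower without overlap, at 5.86 (not well above background) and 7.77. By this probe the genotypes overlapped in the paraxial tissue, where neither mutant array was well above background. Epha5 thus stands in both counts by its brightest probe alone. Beside the paraxial values, the summed log2 signal of 12 endothelial genes ran from 15.96 to 16.29 in wild type and from 16.63 to 16.74 in mutants, and that of 11 surface ectoderm genes from 17.94 to 18.10 and from 18.34 to 18.49. That of 7 erythroid genes ran from 17.92 to 18.12 in wild type and from 18.67 to 18.89 in mutants. At an unadjusted p under 0.05 limma counted 1 of the 12 endothelial, 7 of the 11 surface ectoderm and 5 of the 7 erythroid genes. After adjustment 0 of these genes passed. Their part in the differences was not tested.

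The largest genotype differences were those of Epha3, and they rested on 1 embryo. Epha3 read 12.39 and 10.57 in the wild-type neural tube and 12.85 and 12.43 in the wild-type paraxial tissue. In mutants it read 8.39 in the neural tube and 8.72 in the paraxial tissue of embryo 1, and 11.46 and 12.46 in those of embryo 2. Both tissues of mutant embryo 1 were thus low together, while mutant embryo 2 lay within the wild-type range in both. The fitted differences were -1.55 ± 1.19 (adjusted p = 0.922) and -2.05 ± 1.19 (adjusted p = 0.996), and without mutant embryo 1 they were -0.02 and -0.18. The Epha3 probe was well above background on all 8 arrays, and its SD over them of 1.76 was the largest among the members, whose median SD was 0.30 beside 0.35 over all genes.

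Epha4 had the next largest difference, 0.91 ± 0.65 lower in the mutant neural tube (adjusted p = 0.922), where the groups did not overlap. In the paraxial tissue it was 0.75 ± 0.65 lower (adjusted p = 0.996), but the groups overlapped, and the sign turned without mutant embryo 1 (0.30) and with normexp background correction (0.17). In the neural tube of mutant embryo 1 the 16 neuronal genes had a mean of -0.24 relative to the average of all arrays, against 0.84 in mutant embryo 2 and 0.99 and 0.75 in wild type. Their summed log2 signal there, 19.05, was that of wild-type neural tube array 2 (19.05). Motor neuron genes had a mean of -0.18, against 0.87 in mutant embryo 2 and 0.69 and 1.19 in wild type. In the paraxial tissue, where Epha3 of mutant embryo 1 was as low, neuronal genes had means of -1.12 and -1.01 in mutant embryos 1 and 2. In wild-type embryos 1 and 2 these means were 0.48 and -0.69. The part of neurons in the Epha3 and Epha4 values was not tested.

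The remaining members differed less between genotypes. Ephb2 differed by 0.17 ± 0.24 in the neural tube and -0.13 ± 0.24 in the paraxial tissue, Epha7 by -0.10 ± 0.48 and -0.17 ± 0.48, and Efnb3 by 0.27 ± 0.34 and 0.35 ± 0.34. Efna2 differed by 0.05 ± 0.24 and 0.20 ± 0.24, Efnb1 by 0.18 ± 0.24 and 0.14 ± 0.24, and Epha5 by its brightest probe by 0.20 ± 0.24 and 0.30 ± 0.24. Their adjusted p ranged from 0.930 to 0.996. Of the 12 other family genes 0 passed in either tissue, and the largest difference was that of Epha10 in the paraxial tissue (-1.75 ± 0.88, adjusted p = 0.996). No test of a difference between the tissues in the genotype effect passed for any member.

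**Figure D3:**
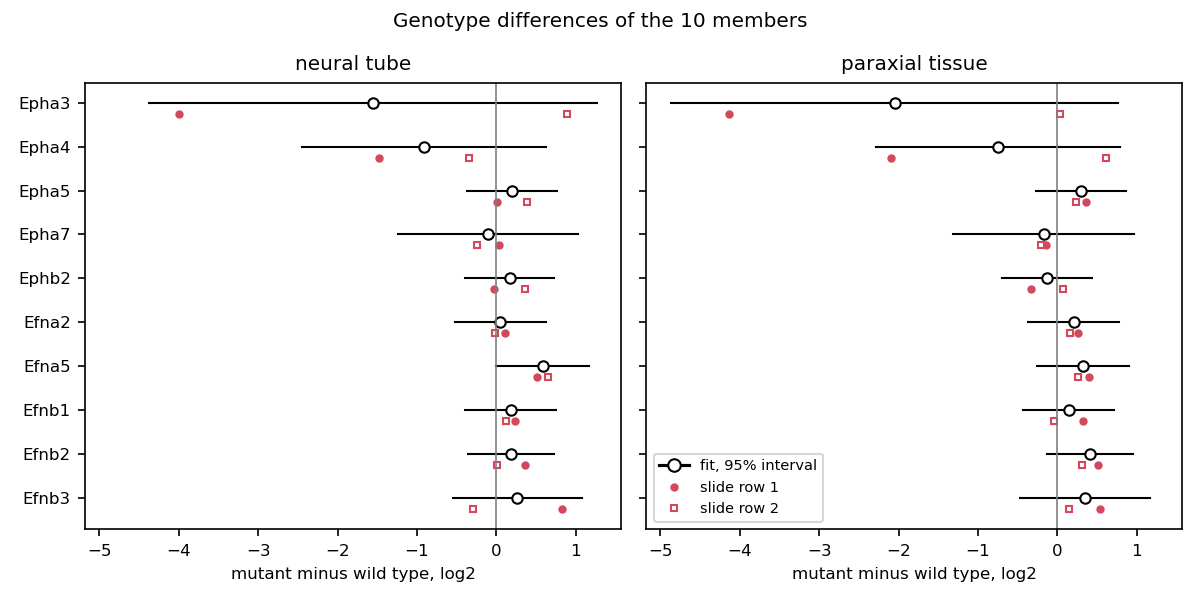
Mutant minus wild type on the log2 scale (horizontal axis) for the 10 members in neural tube (left) and paraxial tissue (right); open circles with lines are the fitted difference and its 95% interval, and small red marks are the difference between the embryos of slide row 1 (filled) and of slide row 2 (open). All intervals include 0, and the marks of Epha3 lie at -3.99 and 0.88 in the neural tube and at -4.13 and 0.03 in the paraxial tissue.

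Epha5, Epha7 and Efnb2 had more than 1 probe, and the second Epha5 probe was near background. The brightest Epha5 probe is the one that holds the 20-base run of TG, and its mean signal ranked at the 99.3rd percentile of all probes with an SD of 0.19 over the 8 arrays. The other probe, without a run, read 7.95 and 8.18 in the wild-type neural tube and 7.07 and 5.50 in the wild-type paraxial tissue. Its mutant values were 5.86 and 7.77 in the neural tube and 5.49 and 6.46 in the paraxial tissue. It was well above background on 4 arrays, both of the wild-type neural tube, 1 of the wild-type paraxial tissue and 1 of the mutant neural tube, and on neither array of the mutant paraxial tissue. In wild type its means were 8.06 in the neural tube and 6.29 in the paraxial tissue, or 6.89 with the array below background set to that array's floor, and the difference did not pass (adjusted p = 0.134 over all kept probes). In mutants the neural tube mean of 6.82, which includes an array not well above background, did not exceed the paraxial floor. The group means thus give no direction there. In mutant embryo 2 the neural tube read 7.77, well above background, and the paraxial tissue 6.46, not well above it. Over the 8 arrays both Epha5 probes had a correlation of r = -0.53, a description of arrays that share embryos.

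All probes were searched for at least 8 unbroken repeats of GT or TG, and of their complements CA or AC, which covers both strands. At least 8 GT or TG repeats were found in 75 probes, 0.135% of all, and at least 8 CA or AC repeats in 34, 0.0611% of all. Of the 75 probes 59 (78.7%) were among the brightest 1% of probes, with a median scaled log2 signal of 17.62 against 9.65 for all probes, a ranking of probe brightness and not of gene levels. Their median SD over the 8 arrays was 0.22, against 0.36. Ephb3, the family gene with the longest run (33 bases), ranked at the 99.6th percentile and differed between tissues by -0.19 ± 0.11 (adjusted p = 0.347). Whether the run sets the signal of the Epha5 and Ephb3 probes was not tested, and no other probe of the family held such a run.

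**Figure D4:**
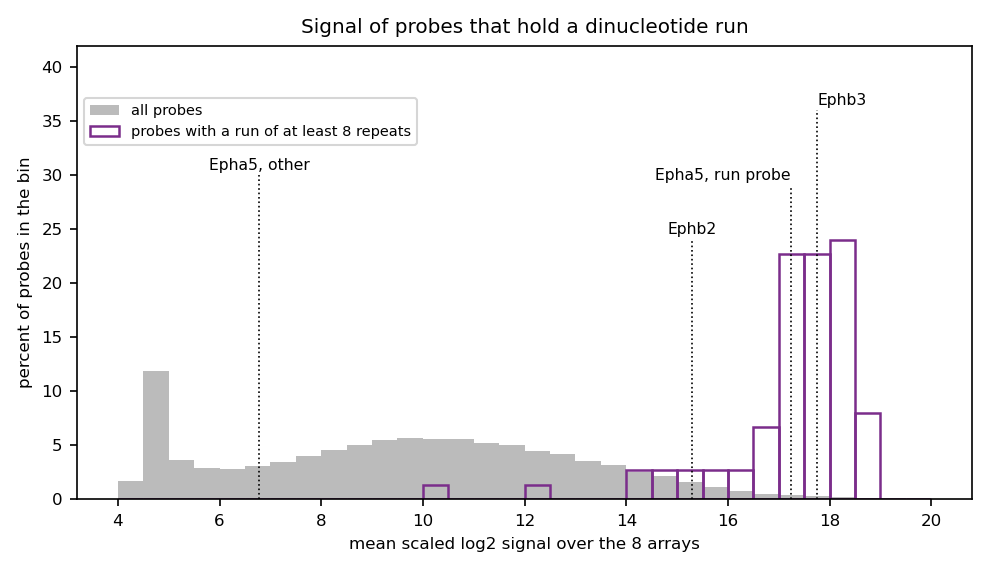
Percent of probes (vertical axis) by mean scaled log2 signal over the 8 arrays (horizontal axis, bins of 0.5), in grey for all 55664 probes and in purple outline for the 75 probes with a run of at least 8 GT or TG repeats; dotted lines mark 4 probes of the family. The run-holding probes of Epha5 and Ephb3 lie among the purple bars near 17 and 18, and the other Epha5 probe lies near 7.

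For Epha7 the 3 probes pointed the same way. The probe at chr4:28869764-28869823 read 10.43 and 11.15 in the wild-type neural tube and 11.95 and 12.03 in the wild-type paraxial tissue, and in mutants 10.68 and 11.49 against 12.06 and 11.98. No neural tube array reached the paraxial arrays, and with each kept probe fitted on its own the difference of -1.07 ± 0.19 passed (adjusted p = 0.0149 over all kept probes). The other variant 2 probe gave -0.80 ± 0.37 (adjusted p = 0.223), and it read 11.25 on wild-type paraxial array 2 and between 8.28 and 8.86 on the other 7 arrays. The probe assigned to variant 1 and the first probe assigned to variant 2 rose and fell together (r = 0.94 over 8 arrays). Whether these probes tell the transcripts apart was not tested, so this is a likeness of probes and not of transcripts. For Efnb2 the second probe gave 0.09 ± 0.12 (adjusted p = 0.704) where the brightest gave -0.00 ± 0.10, neither passing.

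**Figure D5:**
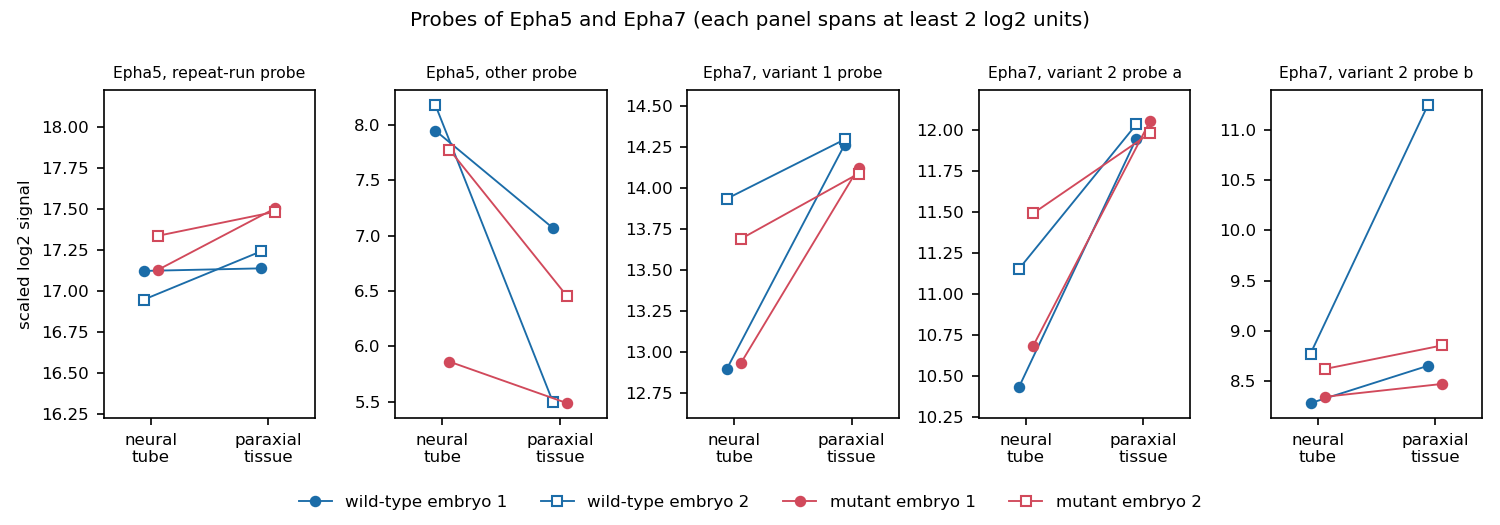
Scaled log2 signal (vertical axis, each panel with its own range) of both Epha5 probes and the 3 Epha7 probes in neural tube and paraxial tissue, drawn as in the plot of the members by embryo. The Epha5 probe without a run was well above background on 4 of the 8 arrays, so its lower points are bounds, and the Epha7 panels rise in all 4 embryos, with 1 wild-type paraxial array at 11.25 in the last panel.

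Signalling partners downstream of the family were read from a list of 42 genes, of which 40 were measured. In the average over genotypes 4 were higher and 4 lower in the neural tube, beside 5.97% and 6.03% of all genes, and the median difference of the list was -0.01, close to that of all genes. Lower were Mmp14, a membrane-bound protease, by 1.05 ± 0.15 (adjusted p = 0.00661), Ptprj, a phosphatase that acts on Eph receptors, by 0.71 ± 0.11 (adjusted p = 0.00832), Arhgef16, a guanine nucleotide exchange factor, by 1.02 ± 0.16 (adjusted p = 0.0103), and Rock1, a kinase that acts on the cytoskeleton, by 0.58 ± 0.14 (adjusted p = 0.0375). Higher were Chn1, a Rac regulator needed by EphA4 signals, by 0.56 ± 0.11 (adjusted p = 0.0213), and Pak1, a kinase downstream of Rac, by 0.82 ± 0.17 (adjusted p = 0.0252). Also higher were Ngef, the exchange factor known as ephexin, and Vav3, another exchange factor. Ngef was not well above background on any paraxial array. Vav3 was well above background on 1 of 2 wild-type and 0 of 2 mutant paraxial arrays, and on 1 of 2 wild-type neural tube arrays. Both differences thus rest in part on arrays that give only a bound. For Ngef the mutant neural tube, at a mean of 8.63, was at least 2.86-fold above the mutant paraxial tissue, measured at 6.11 (adjusted p = 0.0482), with the lowest signal well above background on each array as the floor. In wild type alone 1 of the 40 passed (Ptprj, lower by 0.86 ± 0.15, adjusted p = 0.0427), beside 2.49% of all genes. In mutants alone 4 did, 2 in each direction, beside 5.87% of all genes. None of the 40 passed between genotypes (limma; 1 at an unadjusted p under 0.05 in the neural tube, Rock1, 0.77 ± 0.31 higher in mutants, adjusted p = 0.922, and 0 in the paraxial tissue).

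Likeness of pattern was measured as Pearson's r over the 8 arrays, against the 28807 genes outside the family, for the member of each class with the smallest tissue p. For Epha7 the most alike were Cthrc1 (r = 0.985), Sox10 (0.977) and Itga9 (0.972). For Ephb2 they were Wdr54 (r = 0.982) and 2 intergenic transcripts named by their position on chromosomes 8 and 6 (r = 0.995 and 0.982). For Efna5 they were Snap23 (r = 0.996), Dph1 (0.994) and Hira (0.991), and for Efnb3 Gm13888 (0.981), Dnajb9 (0.980) and an unnamed Ensembl transcript (0.978). Values of r above 0.95 were reached by 165 genes for Efna5, 62 for Ephb2, 21 for Epha7 and 15 for Efnb3. The 8 arrays share embryos and tissues, so these values describe the arrays. Among the members themselves r ran from -0.83 (Epha3 with Efnb3) to 0.86 (Efna5 with Efnb1).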

How the data were processed

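The deposited intensity values are processed red-channel (Cy5) signals, 1 file per array, made by the authors with Agilent Feature Extraction 11.0.1.1 with spatial and multiplicative detrending (per the file headers). From them log2 values of the deposited signals were computed here, each array's 75th percentile was subtracted and a common constant added back. Of 62976 spots an array, 3671 control spots and outlier spots were left out, and spots of a probe were averaged. All 8 arrays lay on 1 slide, with replicate numbers in separate rows. A probe was kept where both arrays of any group read it well above background, and the brightest stood for a gene. Names came from a RefSeq table (26045 probes by accession, 4130 by symbol) or from the file (25489).

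Comparisons used limma 3.58.1 in R 4.3.3: 4 group means, duplicateCorrelation with the embryo as block (consensus correlation 0.603), eBayes and Benjamini-Hochberg adjustment over 28829 genes at 0.05. The error given with a difference is the model's SE. Deviations from the group means correlated between the tissues of one embryo (across genes, r = 0.562 in wild type and 0.607 in mutants), which bears on the pairing. Between wild-type and mutant embryos of the same slide row they correlated less, at 0.289 in the neural tube and 0.291 in the paraxial tissue. Within a genotype the embryo and the slide row cannot be told apart. The labels give the shared embryo, so each embryo is 1 replicate and p-values rest on 2 per genotype. The precision of arrays is limited by their number. The code was tested on simulated arrays.

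The members, the gene lists and the comparisons were chosen with earlier results of these data known. Named genes are the 22 family genes, Gmnn, up to 4 genes of the signalling list per contrast by smallest p, and for likeness the 3 genes with the highest r for 1 member per class. Vav3 and Pak1 fall outside this rule and were named after their values were seen. Marker lists are given only as counts and levels. Alternatives were quantile and median scaling, normexp (offset 50), the authors' value table (within 0.497% of the scanner files), both filters, the mean of a gene's probes, the models of the embryo and slide row, trend and robust moderation, and leaving out each array and each embryo. Fitting every kept probe on its own, and dropping probes with at least 8 GT or CA repeats, were chosen after seeing the data.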

Additional observations from a re-analysis of the deposited data

Results flagged for a closer look

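For 3 family genes both wild-type embryos moved one way between tissues and both mutant embryos the other way, by the brightest probe. The share of all genes that did so was not counted, so the 3 cannot be set against a background. By its second probe Efnb2 did not do so. That probe read 12.99 in the neural tube and 12.88 in the paraxial tissue of mutant embryo 2, the direction of wild type. The genotype by tissue interaction, which tests for such a difference, passed for none of the 3 genes. It was -0.16 ± 0.22 for Efna2 (adjusted p = 0.981), -0.22 ± 0.20 for Efnb2 (adjusted p = 0.967) and -2.20 ± 0.81 for Epha2 (adjusted p = 0.952). The tissue differences of Efna2 were small, 0.12 and 0.0055 in the wild-type embryos and -0.027 and -0.16 in the mutants. Epha2, an EphA receptor of epithelia that is not among the 10 members, was higher in the neural tube by 0.08 and 2.53 in the wild-type embryos. It was lower by 1.46 and 0.33 in the mutants. The 2.53 rests on wild-type neural tube array 2, which read 10.26, while no other array read above 8.86.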

How the results depend on the processing

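The one called member, Ephb2, kept its direction in all 25 alternatives (0.40 to 0.52) and its call in 9 (adjusted p 0.0127 to 0.271). With no replicate block its adjusted p was 0.271, and 4, 0 and 599 of all genes were called between tissues in wild type, in mutants and on the average of genotypes, against 717, 1693 and 3459. The calls of Efna4, Ephb1, Epha10, Ephb4 and Efna1 on the average held in 17 of 25, 16 of 24, 13 of 25, 10 of 25 and 9 of 24 alternatives. With the embryo as a fixed replicate block, which gives no genotype comparison, these counts were 51, 218 and 1982. With the slide row fixed beside the embryo they were 427, 1024 and 2614, and with no filter on dim probes 366, 620 and 2301; in these 4 settings 0 members were called. On the average of genotypes 2 members (Ephb2 and Epha7) were called with median scaling, with normexp, with probes well above background on all arrays and with the mean of a gene's probes, where Epha7 had adjusted p from 0.0159 to 0.0439. With trend and robust moderation 3 were called (also Efnb3, 0.0422). In mutants alone 1 member, Ephb2, was called with normexp and with trend and robust moderation. In wild type alone normexp called 1485 genes and trend and robust moderation 1095. The cause of these changes was not tested, except that without a filter more genes were tested.

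With arrays or embryos left out, all-gene counts ran from 31 to 585 in wild type, from 0 to 1604 in mutants and from 808 to 3498 on the average of genotypes, and members called there from 0 to 1. Without mutant paraxial tissue replicate 2 Epha4 was called (1.41), as it was without mutant embryo 2 (1.34). Both fits left mutant paraxial array 1 alone in its group, where Epha4 was not well above background (5.50). These Epha4 differences thus rest in part on an array that gives only a bound. Efnb3 was called without mutant neural tube replicate 2 (0.71, adjusted p = 0.0415) and Epha7 without wild-type neural tube replicate 2 (adjusted p = 0.0330). Between genotypes 0 to 16 genes were called in the paraxial tissue and 0 to 19 for the interaction, and 0 members. Over these left-out arrays some differences that did not pass turned sign. Between tissues Efna2 ran from -0.044 to 0.17 in wild type and from -0.069 to 0.037 on the average, Efnb1 from -0.33 to 0.0048 in wild type, Efnb2 from -0.051 to 0.045 on the average and Epha3 from -1.61 to 0.28 in mutants. Between genotypes in the neural tube Epha7 ran from -0.62 to 0.41, Ephb2 from -0.018 to 0.35, Efna2 from -0.076 to 0.18 and Efnb3 from -0.21 to 0.74. In the paraxial tissue Epha4 ran from -1.80 to 0.30, Epha7 from -0.47 to 0.12, Ephb2 from -0.27 to 0.0094 and Efnb1 from -0.0043 to 0.29.

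Scaling turned some small differences. With quantile normalization the tissue difference on the average was 0.0059 for Efna2, 0.049 for Efnb2 and 0.0070 for Ephb3, and the genotype difference was -0.047 for Epha5, -0.038 for Ephb2 and -0.049 for Efna2 in the neural tube and -0.012 for Efnb1 in the paraxial tissue. With normexp the tissue difference was 0.020 for Epha5 and -0.0094 for Efnb2 in wild type and 0.093 for Efna2 on the average, and the genotype difference was -0.026 for Efna2 in the neural tube and 0.17 for Epha4 in the paraxial tissue. Of all genes called on the average of genotypes, 39.4% were higher in the neural tube with normexp and 40.6% with no replicate block. Median scaling moved the median genotype difference of all genes in the paraxial tissue to 0.13. The mean of a gene's probes gave tissue differences of 0.81, 0.29 and 0.55 for Epha5 in wild type, mutants and on the average and 0.041 for Efnb2 on the average. Its genotype differences were -0.52 for Epha5 and 0.048 for Epha7 in the neural tube and -0.0051 for Epha5 in the paraxial tissue. With run-holding probes left out, Epha5 rested on its other probe and gave 1.78, 0.85 and 1.31 between tissues and -1.24 and -0.31 between genotypes. That probe was well above background on 4 of 8 arrays and on 0 mutant paraxial arrays, so these are not exact differences, and with the floor in place the 0.85 and the -0.31 have no direction. None of the 52 values that turned sign passed (lowest adjusted p 0.0600). What can be called is limited by the 8 arrays and by dim probes such as those of Epha4 and the second Epha5 probe.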
